A study of Mus musculus with 9 samples.

Results

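Broad promoter domains were examined in ATAC-seq peak lists of mouse embryos at embryonic day (E) 9.5. ATAC-seq marks accessible chromatin by the insertion of a transposase, and a peak is a stretch of the genome where insertions are enriched. The peaks of all 9 lists were merged where they overlapped, on autosomes 1 to 19 and the X chromosome. A domain was a merged region of 2000 bp or longer that overlapped a peak of each of the 9 libraries by 1 bp or more and lay within 1 kb of an annotated transcription start site (TSS). This gave 150 domains of 73301 merged regions. Of the merged regions, 13644 held a peak of all 9 libraries and 10488 of these lay within 1 kb of a TSS, so the domains were 1.43% of the promoter regions shared by all libraries. The domains were selected on the length and presence of the measured peaks. Their covered length, number of peaks and presence in each library are therefore given as descriptions, with no test.

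The 9 libraries fall into 3 groups of 3, all made from GFP-positive, DAPI-negative cells sorted from pooled Swiss Webster embryos that carried a Cre-dependent GFP reporter at Rosa26 (Rosa26-GFPflox/+). Mesp1-Cre Ctrl embryos (Mesp1Cre;Rosa26-GFPflox/+) mark the mesoderm that once expressed Mesp1. Tbx1-Cre Ctrl embryos (Tbx1Cre;Rosa26-GFPflox/+) mark cells that expressed Tbx1, in pharyngeal mesoderm, endoderm and ectoderm. Tbx1-Cre cKO embryos (Tbx1Cre/flox;Rosa26-GFPflox/+) carry the Cre allele over a floxed Tbx1 allele. The Cre in the last 2 groups is expressed from the Tbx1 locus itself, so their controls hold 1 intact Tbx1 allele, while the Mesp1-Cre Ctrl embryos carry no Tbx1 allele change in their labels. The tissue is labelled as pharyngeal apparatus and heart for the Mesp1-Cre libraries, with the back added for both Tbx1-Cre groups, whereas the methods of the study describe dissection without the heart for ATAC-seq. The controls of the 2 Cre drivers thus differ in tissue and in Tbx1 alleles as well as in lineage, and these cannot be told apart. The labels do not tie a library number to separate litters, so p-values measure the spread between these libraries.

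The number of reads was not used here and depth is unknown. The lists hold 25476 to 42638 peaks in Mesp1-Cre Ctrl, 43271 to 49477 in Tbx1-Cre Ctrl and 19762 to 29249 in Tbx1-Cre cKO, so the Tbx1-Cre Ctrl lists were longer than all others and list length moved with each comparison to them below. Over all chromosomes, Mesp1-Cre Ctrl 2 and 3 hold 25485 and 30535 peaks, which the study lists for its replicates 1 and 2. The 42650 peaks of Mesp1-Cre Ctrl 1 match no Mesp1-Cre library the study lists, while the Tbx1-Cre lists match. For the main comparisons, values from lists cut to an equal number of peaks are given beside the others. The cut keeps the widest peaks of each list, with their widths unchanged. It thus selects on width, a part of the measured length, and is not a full control for list length. Of 8 marker genes of pharyngeal mesoderm, Isl1 and Twist1 had a promoter peak in all 9 libraries, and Hand2, Foxf1, Gata4, Tbx1, Tcf21 and Nkx2-5 in 7, 6, 5, 5, 4 and 1. In the 3 cKO lists Tbx1, Gata4, Nkx2-5, Olig2 and all 4 endoderm markers had none. Of these, Tbx1, Gata4 and Olig2 had a promoter peak in all 3 Tbx1-Cre Ctrl libraries. Epcam and Cdh1 had one in 2 of those libraries, Foxa2 and Sox17 in 1 and Nkx2-5 in 0. An absence in cKO beside a peak in every Tbx1-Cre Ctrl library was thus shared with Gata4 and Olig2 and not particular to Tbx1. Pax6, a neural marker, and Kdr, an endothelial one, also had a promoter peak in all 9, while Pecam1, Cdh5 and Gata1, markers of endothelium and blood, had none in any list. None of 4 endoderm markers had one in all 9 libraries.

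Most promoters of vertebrate genes lie in CpG islands, stretches rich in G, C and unmethylated CpG dinucleotides where nucleosomes are unstable. Accessible chromatin at such a promoter usually spans the nucleosome-depleted region at the TSS and its immediate neighbours. Broader open promoters can hold additional start sites, divergent transcripts or regulatory elements next to the TSS, and long stretches of active promoter chromatin are known at genes of cell identity and at genes with long CpG islands.

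Sequences of 5 domains are shown to make the range of sequence among them visible. Each is 200 bp around the centre of the part covered in most libraries, read from the mm9 reference (NCBIM37) along the direction of transcription of the named gene, with CpG dinucleotides in capitals. The Pou2f1 window (chr1:167932909-167933108, minus strand) lay upstream of the gene's TSS and held 21 CpG sites. The Rcor3 window (chr1:193960636-193960835, minus strand) was intronic and held 20. The Zbtb1 window (chr12:77472148-77472347, plus strand) was intronic, 995 bp downstream of the lead TSS, and held 14. The Peg3 window (chr7:6681340-6681539, minus strand) was intronic, held 5 CpG sites and is shown for its YY1 motif. The Tcte2 window (chr17:13745352-13745551, minus strand) was intronic, held 0 CpG sites and consists of a short tandem repeat.
Pou2f1: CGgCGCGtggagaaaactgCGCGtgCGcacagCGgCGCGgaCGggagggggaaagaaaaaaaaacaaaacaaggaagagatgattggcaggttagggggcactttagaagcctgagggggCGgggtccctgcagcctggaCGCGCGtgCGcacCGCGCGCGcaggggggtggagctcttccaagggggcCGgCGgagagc
Rcor3: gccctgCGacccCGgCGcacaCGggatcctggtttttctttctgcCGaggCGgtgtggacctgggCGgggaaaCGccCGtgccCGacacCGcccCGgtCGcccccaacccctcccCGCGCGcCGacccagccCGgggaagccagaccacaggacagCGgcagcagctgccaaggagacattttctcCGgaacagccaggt
Zbtb1: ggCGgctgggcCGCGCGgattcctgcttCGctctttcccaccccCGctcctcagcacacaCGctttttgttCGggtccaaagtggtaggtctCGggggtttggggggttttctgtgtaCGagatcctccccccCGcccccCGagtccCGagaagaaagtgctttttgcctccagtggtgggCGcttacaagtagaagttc
Peg3: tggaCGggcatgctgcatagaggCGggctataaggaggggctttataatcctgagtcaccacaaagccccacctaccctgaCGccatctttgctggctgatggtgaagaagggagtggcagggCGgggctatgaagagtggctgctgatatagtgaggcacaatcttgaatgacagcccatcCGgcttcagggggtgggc
Tcte2: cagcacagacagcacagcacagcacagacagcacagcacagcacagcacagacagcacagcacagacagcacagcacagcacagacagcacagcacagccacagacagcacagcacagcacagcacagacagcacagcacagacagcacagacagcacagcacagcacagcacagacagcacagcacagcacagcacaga
Pou2f1 encodes the octamer-binding factor OCT1, Rcor3 a partner of the REST corepressor complex, Zbtb1 a zinc-finger protein needed in lymphoid development, and Peg3 a zinc-finger protein expressed from the paternal allele. The first 3 windows are typical of the CpG-rich domains described below, and Tcte2 is 1 of 7 domains set apart by their sequence.

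The merged length of the domains had a median of 2157 bp and reached 5589 bp, against a median of 1079 bp in the 10338 shared promoter regions under 2000 bp (narrower promoters). A merged region can be longer than the stretch open in any single library, and 15 domains were covered over their whole length by the peaks of 1 library. In 79 of the 150 domains no library covered 2000 bp with its own peaks, in 42 exactly 1 library did, and in 2 all 9 did. The median domain had 627 bp covered in all 9 libraries, which was 28.3% of its length, against 502 bp and 45.2% in narrower promoters. In 14 domains no base was covered by all 9 libraries, although each library had a peak somewhere in the domain.

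The covered length, the summed length of the peaks of a library in a domain, had medians over the 150 domains of 1579.5, 1173.5 and 1379.5 bp in Mesp1-Cre Ctrl 1 to 3. The medians were 1833.5, 1665 and 1849.5 bp in Tbx1-Cre Ctrl 1 to 3 and 1276.5, 1304 and 998.5 bp in Tbx1-Cre cKO 1 to 3. The 3 Tbx1-Cre Ctrl libraries lay above all other libraries, and the cKO and Mesp1-Cre Ctrl libraries overlapped. Narrower promoters gave the same order at a lower level, with 695 to 851 bp in Mesp1-Cre Ctrl, 855.5 to 907 bp in Tbx1-Cre Ctrl and 631 to 730 bp in cKO. The domains were therefore 1.58 to 2.06 times as long as narrower promoters within each of the 9 libraries. Tbx1-Cre Ctrl 1, 2 and 3 held the longest coverage in 61, 20 and 56 domains and Mesp1-Cre Ctrl 1 in 9. The left end of the merged domain was set by Tbx1-Cre Ctrl 1 in 43 and by Tbx1-Cre Ctrl 3 in 51. The choice of domains by merged length thus rested mostly on the Tbx1-Cre Ctrl lists, and without Tbx1-Cre Ctrl 1 the rule gave 97 domains.

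**Figure D1:**
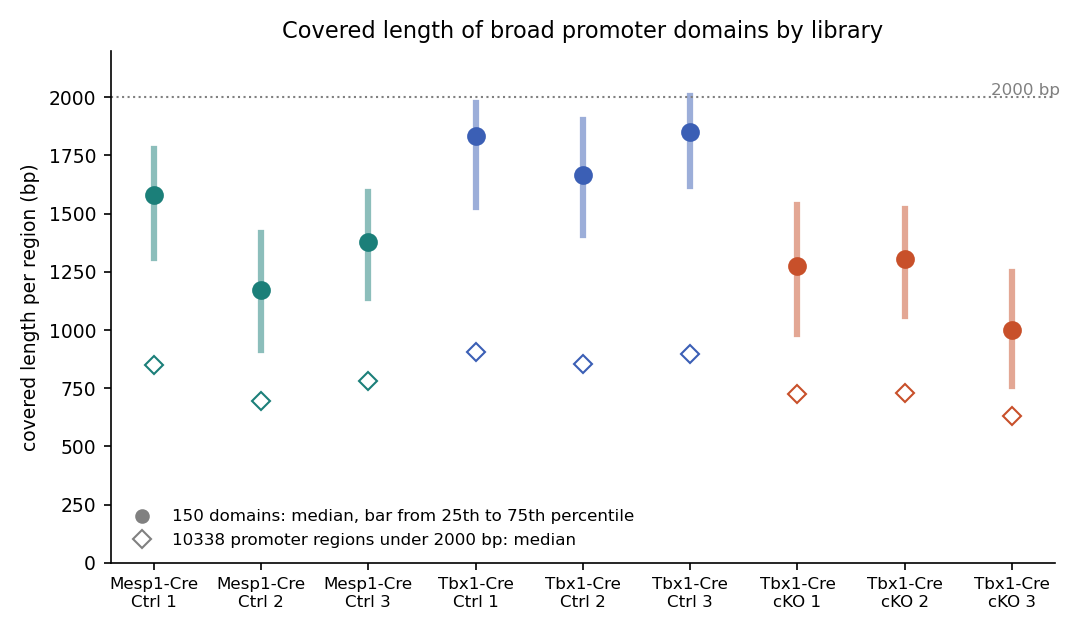
Covered length per region in bp in each of the 9 libraries. Filled circles are medians over the 150 domains with bars from the 25th to the 75th percentile, open diamonds are medians over 10338 narrower promoters, and the 3 Tbx1-Cre Ctrl libraries (1665 to 1849.5 bp) lie above the 3 cKO libraries (998.5 to 1304 bp) for domains.

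In 8 of the 9 libraries most domains were split into several peaks. A single peak covered 34.0% to 38.7% of domains in the Mesp1-Cre Ctrl libraries, 38.7% to 52.0% in Tbx1-Cre Ctrl and 33.3% to 41.3% in cKO, whereas 90.1% to 94.3% of narrower promoters were a single peak. The mean number of peaks per domain was 1.78 ± 0.062 in Mesp1-Cre Ctrl, 1.68 ± 0.15 in Tbx1-Cre Ctrl and 1.75 ± 0.072 in cKO (SD, n = 3 each), and the groups overlapped. There were 5 domains that were a single peak in all 9 libraries: Gm10925, Fbn1 (fibrillin 1, of elastic fibers), Mtap4 (a microtubule-associated protein), Scaf11 and Rps6ka3. The 9 domains split in all 9 libraries included those of Peg3, Rcor3, Ncoa2, Ywhaz, Etv1, 5031425E22Rik with Mll5, Mier3 and Sgsm2. These names were taken after their values were seen. The other 136 domains were continuous in some libraries and split in others.

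The gaps between neighbouring peaks numbered 82 to 127 per library and had medians of 151 to 320 bp. From 55.9% to 72.4% of the gaps in a library were centred downstream of the lead TSS, the start site of the named gene nearest to the midpoint of the domain. Their median GC content was 64.2% to 71.1% across libraries, beside 64.3% to 67.1% in the peaks of the domains. The gaps were more GC-rich than the peaks in Tbx1-Cre Ctrl 1 (71.1% against 64.3%) and Tbx1-Cre Ctrl 3 (70.4% against 64.7%). In the other 7 libraries the 2 values differed by less.

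At the lead TSS 84.9% ± 3.4 of domains held a peak in Tbx1-Cre Ctrl libraries, 77.8% ± 7.4 in Mesp1-Cre Ctrl and 72.2% ± 11 in cKO (SD, n = 3 each). For narrower promoters these values were 92.9% ± 1.3, 90.8% ± 3.2 and 86.0% ± 2.8, higher than for the domains in each group. At 500 bp upstream the group means were 73.1%, 61.8% and 54.7% in the order Tbx1-Cre Ctrl, Mesp1-Cre Ctrl and cKO, and at 500 bp downstream 71.1%, 48.2% and 44.2%. At 1000 bp downstream 49.8% ± 6.5 of domains held a peak in Tbx1-Cre Ctrl, 33.6% ± 7.1 in Mesp1-Cre Ctrl and 26.9% ± 2.7 in cKO. At 1000 bp upstream the values were 39.1% ± 5.8, 26.4% ± 4.7 and 21.3% ± 2.4. In narrower promoters 2.51% to 6.21% of regions held a peak at these distances as group means. The downstream side was thus lower at 500 bp and higher at 1000 bp in all 3 groups. The domains reached a median of 1020.5 bp upstream and 1152.5 bp downstream of the lead TSS, and 58% reached farther downstream than upstream, beside 56.8% of narrower promoters.

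**Figure D2:**
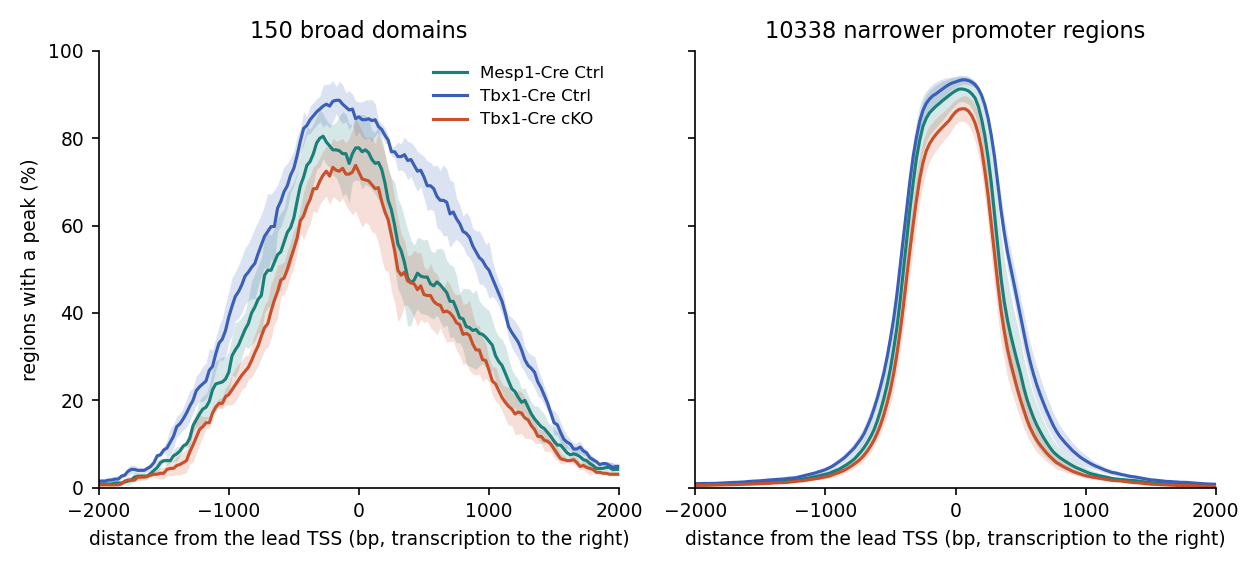
Percentage of regions with a peak by distance from the lead TSS in bp, for 150 domains on the left and 10338 narrower promoters on the right. Lines are means of 3 libraries per group and bands are SD, and the domains are broader on both sides of the TSS and highest in Tbx1-Cre Ctrl, with 71.1% at 500 bp downstream against 48.2% in Mesp1-Cre Ctrl and 44.2% in cKO.

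The longest domain lay at AY036118 (chr17:39980081-39985669, 5589 bp), known to lie over sequence of the ribosomal RNA precursor. It was covered over 5363 to 5551 bp in Mesp1-Cre Ctrl, 5572 to 5584 bp in Tbx1-Cre Ctrl and 5333 to 5547 bp in cKO. The next was Gm10925 with Gm10222 (chr1:24618508-24623098, 4591 bp), covered over 4344 to 4536 bp in all 9 libraries. Of its length, 98.5% matched the mitochondrial genome at up to 99.9% identity. These 2 were the only domains covered over 2000 bp in all 9 libraries, and their libraries barely differed.

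The next longest domains were gene promoters. Peg3 (chr7:6680714-6683591, 2878 bp) was covered over 1530, 1204 and 1872 bp in Mesp1-Cre Ctrl 1 to 3, over 1897, 2025 and 2515 bp in Tbx1-Cre Ctrl 1 to 3 and over 1285, 1273 and 1141 bp in cKO 1 to 3. The cKO and Tbx1-Cre Ctrl libraries did not overlap at Peg3. Its peaks lay next to the TSS, between it and 1 kb downstream, and beyond 1 kb downstream in an intron, with the first 2 joined in Tbx1-Cre Ctrl 1, the last 2 joined in Tbx1-Cre Ctrl 3 and the middle one missing in cKO 3, and 6 matches to the YY1 core lay in the region, the most of any domain. Rreb1 (chr13:37917237-37919840, 2604 bp), which encodes a zinc-finger factor responsive to RAS signaling, was covered over 1423, 1032 and 1419 bp in Mesp1-Cre Ctrl, 2484, 1851 and 2199 bp in Tbx1-Cre Ctrl and 1055, 1647 and 841 bp in cKO. Only 143 bp of it were covered in all 9 libraries. In Tbx1-Cre Ctrl 1 a single peak of 2484 bp ran through the TSS of Rreb1. A peak also crossed its TSS in Tbx1-Cre Ctrl 2, Tbx1-Cre Ctrl 3 and cKO 2, and none did in cKO 1, cKO 3 or the Mesp1-Cre Ctrl libraries.

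Zbtb1 with Zbtb25 (chr12:77469908-77472538, 2631 bp), a divergent pair of zinc-finger genes, had no base covered in all 9 libraries. Its covered length was 974 to 1610 bp in Mesp1-Cre Ctrl, 1630 to 2393 bp in Tbx1-Cre Ctrl and 1015 to 1743 bp in cKO, and the last 2 groups overlapped. Pou2f1 (chr1:167931300-167933849, 2550 bp) ranged from 1140 to 1260 bp in Mesp1-Cre Ctrl, 1345 to 2125 bp in Tbx1-Cre Ctrl and 978 to 1237 bp in cKO, with no overlap of the Tbx1-Cre Ctrl libraries with the others. Rcor3 (chr1:193960250-193962766, 2517 bp) ranged from 1279 to 2028 bp, 1986 to 2245 bp and 875 to 1519 bp in the same order. The other 3 of the 10 longest were Crlf2 (2593 bp), a cytokine receptor subunit, 4931408C20Rik (2548 bp) and Tcte2 (2490 bp).

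The domains with the highest minimum over the libraries included AY036118, Gm10925, Tcte2, Zfp91, 1110012D08Rik, Foxn2, Tsen34, 1190002N15Rik and Crlf2. Zfp91 (chr19:12869140-12871299, 2160 bp), which encodes a zinc-finger ubiquitin ligase, was covered over 1873, 1611 and 1884 bp in Mesp1-Cre Ctrl, 1808, 1902 and 2160 bp in Tbx1-Cre Ctrl and 1709, 1917 and 1795 bp in cKO. The 3 groups overlapped at Zfp91. Foxn2 (chr17:88839472-88841627, 2156 bp), a forkhead transcription factor gene, had 1530 to 1807 bp, 1784 to 2019 bp and 1529 to 1700 bp. Tsen34, a subunit of the tRNA splicing endonuclease, shares its domain with Mboat7 and had 1508 to 1995 bp over the 9 libraries.

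**Figure D3:**
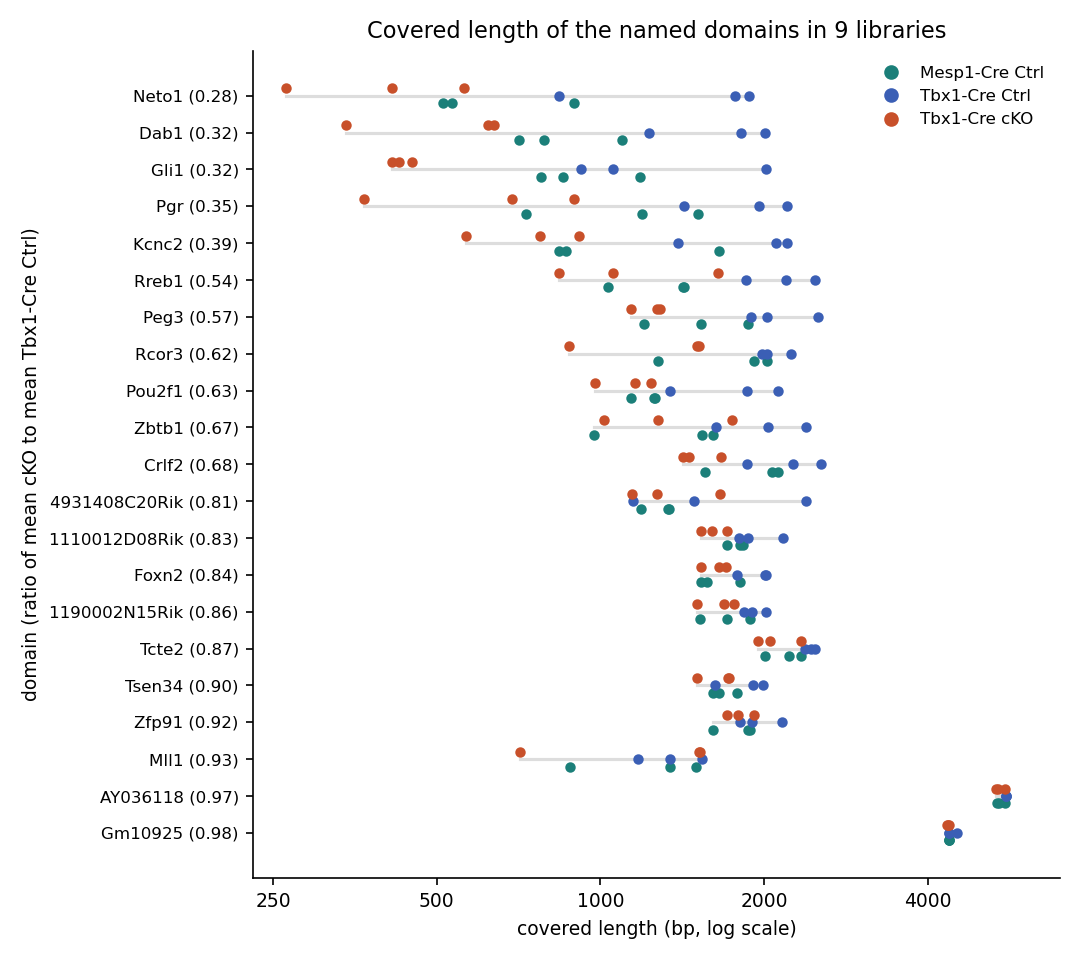
Covered length in bp on a log axis for the domains named by length, by lowest library and by ratio, with 1 point per library and the ratio of mean cKO to mean Tbx1-Cre Ctrl covered length in parentheses. Neto1 (0.28) and Dab1 (0.32) lie at one end, where cKO libraries cover 264 to 637 bp, and AY036118 (0.97) and Gm10925 (0.98) at the other, where the libraries coincide.

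The ratio of the mean covered length in cKO to that in Tbx1-Cre Ctrl was below 1 in 150 of 150 domains, with a median of 0.681 (0.732 with lists cut to an equal number of peaks). It was below 1 in 95.6% of narrower promoters, with a median of 0.80. The 0.732 from cut lists has no counterpart for narrower promoters. Among narrower promoters the median fell with length, from 0.821 at 500 to 999 bp to 0.730 from 1500 bp up to the limit. The domains thus continued a fall already seen in narrower promoters. Because the Tbx1-Cre Ctrl lists set the ends of most domains, a ratio below 1 is partly fixed by the choice. The lowest ratios were at Neto1, Dab1, Gli1, Pgr and Kcnc2. Neto1 (chr18:86563514-86565707), which encodes an auxiliary subunit of glutamate receptors, had 839, 1770 and 1878 bp in Tbx1-Cre Ctrl and 264, 561 and 413 bp in cKO (ratio 0.276). Dab1 (chr4:104039638-104041793), the reelin pathway adaptor, had 1817, 1227 and 2009 bp against 621, 637 and 341 bp (0.316). At both genes the 2 groups did not overlap. The narrowest peak of each Tbx1-Cre list is 200 bp, so the 264 bp at Neto1 in cKO 1 lies close to the smallest value possible.

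Gli1 (chr10:126776094-126778488), a transcription factor and target of Hedgehog signaling, had 2015, 1055 and 921 bp in Tbx1-Cre Ctrl and 413, 450 and 427 bp in cKO (0.323). In Mesp1-Cre Ctrl it had 1185, 854 and 778 bp, above every cKO library and overlapping Tbx1-Cre Ctrl. Its peaks were 200 and 213 bp wide in cKO 1 and 248 and 202 bp in cKO 2, near the narrowest width of these lists (200 bp). The peaks at Gli1 lay mostly downstream of the TSS, and only in Tbx1-Cre Ctrl 1 did a peak of the domain reach the TSS. Pgr, the progesterone receptor gene (0.348), and Kcnc2, a potassium channel gene (0.395), likewise did not overlap between cKO and Tbx1-Cre Ctrl. In all 5 of these domains no base was covered by all 9 libraries.

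The highest ratios included those at Gm10925 (0.983), AY036118 (0.972), Mll1 (0.926) and Zfp91 (0.924). Mll1 (chr9:44689178-44691214, 2037 bp), a histone H3 lysine methyltransferase gene, had 1346, 1171 and 1535 bp in Tbx1-Cre Ctrl and 1517, 1526 and 711 bp in cKO. The groups overlapped there, since cKO 3 lay below and the other 2 cKO libraries within the range of the controls.

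**Figure D4:**
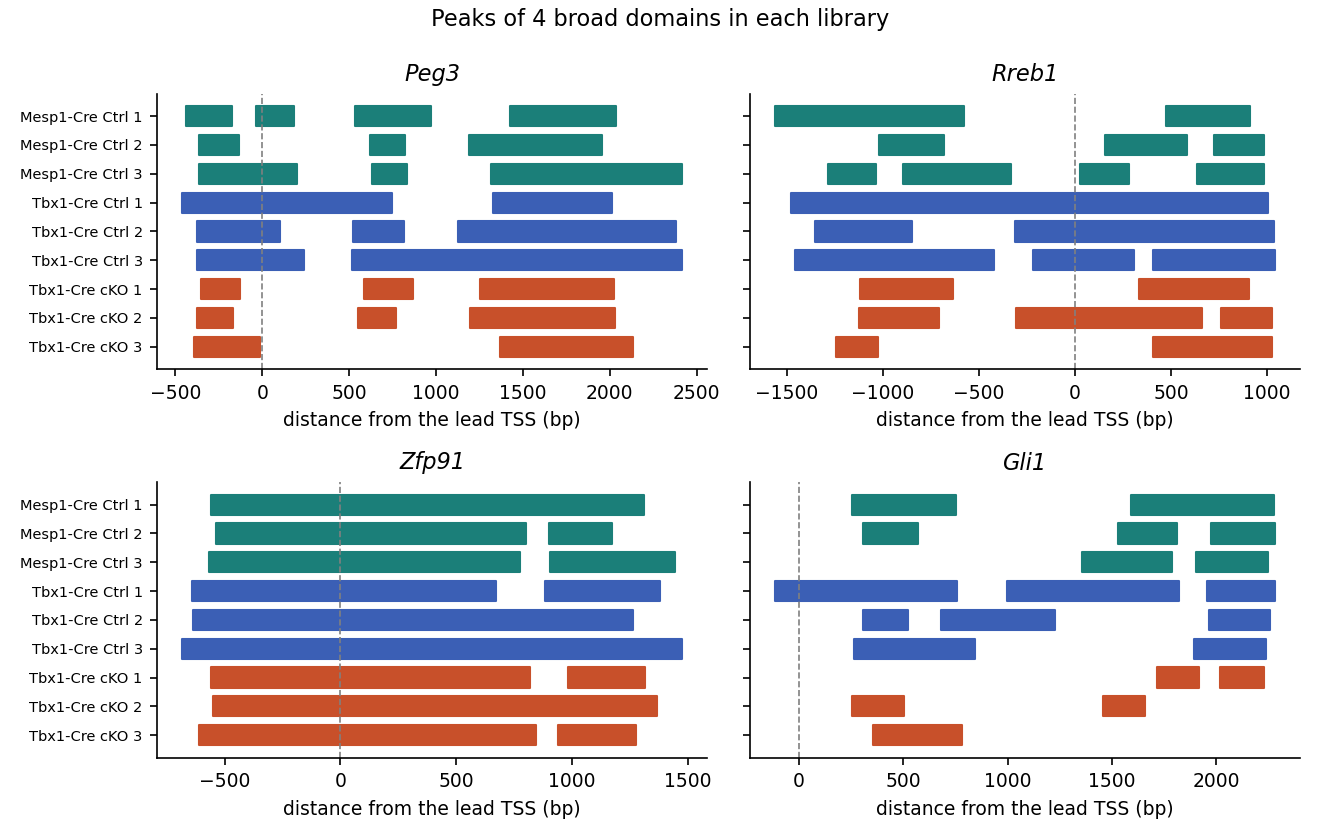
Peaks at Peg3, Rreb1, Zfp91 and Gli1 in each of the 9 libraries, drawn to scale by distance from the lead TSS in bp with transcription to the right. Zfp91 is 1 or 2 blocks in every library, Peg3 is split in every library, Rreb1 is 1 block in Tbx1-Cre Ctrl 1 and several elsewhere, and Gli1 lacks a peak at the TSS in 8 of 9 libraries.

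Counts of domains whose 3 libraries of a group did not overlap those of another are read against the same count over all 13644 merged regions shared by the 9 lists. Every cKO library lay below every Tbx1-Cre Ctrl library in 95 of 150 domains (63.3%), where 43.9% of all shared regions did, and in 0 domains did every cKO library lie above, beside 0.103% of all regions. Every Mesp1-Cre Ctrl library lay below every Tbx1-Cre Ctrl library in 56 domains (37.3%), beside 22% of all regions, and above in 0, beside 0.586%. The Tbx1-Cre Ctrl libraries enter both comparisons. Because the Tbx1-Cre Ctrl lists set the ends of most domains, an excess in this direction is partly fixed by the choice and nothing is drawn from it. With each list cut to its 19762 widest peaks the first count was 68 of 150 (45.3%), beside 36.6% of all shared regions under the same cut. With 7 domains of multi-copy or CpG-free sequence left out, the first count was 92 of 143 (64.3%), an alternative chosen after the data were seen.

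The comparison of groups was therefore tested on domains chosen in libraries that were not compared. The choosing group still resembles Tbx1-Cre Ctrl in each comparison. Mesp1-Cre Ctrl likewise carries no floxed Tbx1 allele, and the cKO lists, used below for the Cre drivers, share its Cre driver and tissue label. Such a choice can favour Tbx1-Cre Ctrl, which was not tested. The same rule applied to the 3 Mesp1-Cre Ctrl lists alone gave 19 domains, all inside the 150, among them Sp3, Setd7, Trim28, Gpc6, Foxn2, Zfp91 and Top2b, and 12313 narrower promoters. Over these 19 domains the median covered length was 1858, 1902 and 2007 bp in Tbx1-Cre Ctrl and 1646, 1654 and 1246 bp in cKO. The groups did not overlap, with means of 1922 ± 76.6 and 1515 ± 233 bp (SD, n = 3 each), a ratio of 0.788 (p = 0.10 by a two-sided exact permutation test, and 3 against 3 libraries allow none smaller). At Gpc6, a glypican gene, the covered length was 2332, 2307 and 2314 bp in Tbx1-Cre Ctrl and 1721, 1503 and 856 bp in cKO. At Setd7, a lysine methyltransferase gene, it was 2004, 1483 and 1815 bp against 1266, 941 and 987 bp. At Zfp91 the 2 groups overlapped. With each list cut to its 19762 widest peaks, the difference over 16 domains was -399 bp, cKO minus Tbx1-Cre Ctrl (p = 0.10, exact permutation).

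Relative to narrower promoters of the same library no difference was resolved. The log2 ratio of the median covered length of these 19 domains to that of narrower promoters was 1.11, 1.23 and 1.24 in Tbx1-Cre Ctrl and 1.27, 1.28 and 1.09 in cKO. The groups overlapped, with a difference of 0.02 on the log2 scale, cKO minus Ctrl (exact two-sided permutation p = 0.60, n = 3 each), and its sign turned under several alternatives. It was 0.11 with means in place of medians and 0.34 for the 2 domains over 3000 bp. Each had the smallest possible exact permutation p of 0.10. Those 2 domains are AY036118 and Gm10925, whose covered length barely differed between libraries, and they also enter the means. Without domains of multi-copy or CpG-free sequence, an alternative chosen after the data were seen, the difference over 17 domains was 3.4e-05. In the same libraries the median covered length of narrower promoters was 860, 811 and 851 bp in Tbx1-Cre Ctrl and 684, 679 and 586 bp in cKO, so it was shorter in cKO there too. The mean number of peaks per domain was 1.74, 1.26 and 1.32 in Tbx1-Cre Ctrl and 1.89, 2.00 and 1.84 in cKO. It was higher by 0.474 peaks in cKO, without overlap (exact two-sided permutation p = 0.10, n = 3 each). With lists cut to an equal number of widest peaks it was higher by 0.667. That cut drops the narrowest peaks, and more of them from the longer Tbx1-Cre Ctrl lists. It can thus lower the number of peaks per domain there, so the 0.667 cannot decide whether the difference holds at equal list length. The difference was 0.187 with a length limit of 1500 bp and 0.296 with the widest 75% of peaks (exact permutation p = 0.20).

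For the 2 Cre drivers, the 3 cKO lists alone gave 9 domains, all inside the 150, at Gm10925, AY036118, Agbl5, N4bp2, Cecr2, Mll1, Nsd1, Arhgef40 and Naa50. Their median covered length was 1834, 1319 and 1637 bp in Mesp1-Cre Ctrl and 2036, 1957 and 1871 bp in Tbx1-Cre Ctrl, a ratio of 1.22 without overlap (exact two-sided permutation p = 0.10, n = 3 each). The log2 ratio to narrower promoters was 1.14, 0.95 and 1.10 in Mesp1-Cre Ctrl and 1.20, 1.22 and 1.08 in Tbx1-Cre Ctrl, which overlapped (difference 0.11, exact two-sided permutation p = 0.30, n = 3 each). With 9 domains, of which Gm10925 and AY036118 are of multi-copy sequence, these values rest on few regions. With lists of equal number the difference in covered length was 435 bp and the relative difference was 0.18 (exact permutation p = 0.10, 8 domains).

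The genes at the domains were compared with 19 gene lists, as counts beside the 1.43% of shared promoter regions that were domains. The share given for a list is of its genes with a shared promoter region, whereas the 1.43% is of regions. Chromatin regulators gave 5 domains of 91 listed genes with a shared promoter region (5.49%): Smarcc2, a SWI/SNF subunit, Setd7, Mll5 and Mll1, which encode members of methyltransferase families, and the deacetylase gene Hdac7. Hdac7 (chr15:97661072-97663273) had 1785, 1872 and 1618 bp in Tbx1-Cre Ctrl, 538, 763 and 785 bp in cKO and 627, 550 and 316 bp in Mesp1-Cre Ctrl, so that the Tbx1-Cre Ctrl libraries stood above both other groups. Smarcc2 had 1088 to 1698 bp in Tbx1-Cre Ctrl and 1215 to 1442 bp in cKO, which overlapped.

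Core histone genes gave 5 genes in 3 domains, of 68 with a shared promoter region (7.35%). Hist2h3c1 with Hist2h2aa1 and Hist2h2aa2 with Hist2h3c2 are duplicated copies on chromosome 3. Their regions matched another place in the genome over 95.9% and 96.0% of their length. The methods of the study keep only uniquely mapped reads, so reads that match both copies would have been dropped. Hist1h4j had 1797 to 1971 bp in Tbx1-Cre Ctrl and 910 to 1128 bp in cKO, without overlap. Among developmental regulators the domains held Six4, Foxn2, Gli1, Sp3 and Wnt16. These were 1 of 41 homeobox genes other than Hox (2.44%) and 1 of 20 forkhead genes (5%). Gli1 and Sp3 were 2 of 32 Sall, Zeb, Snai and Klf/Sp genes (6.25%). Wnt16 was 1 of 47 FGF, WNT, BMP, TGF-beta and Notch pathway genes (2.13%). Six4 (chr12:74212572-74214803), a homeobox gene with roles in muscle, had 1139 to 1927 bp in Tbx1-Cre Ctrl and 642 to 1256 bp in cKO, which overlapped. Sp3, a GC-box binding factor, had 1510 to 2238 bp and 1246 to 1847 bp, and Wnt16, a secreted WNT ligand, had 1429 to 1927 bp and 644 to 1412 bp.

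Of the remaining lists, cyclins and CDK genes gave Ccng2 (1 of 52, 1.92%) and RNA-binding factors Hnrnpk and Ddx3x (2 of 104, 1.92%). Cytoplasmic ribosomal proteins gave Rpl7 (1 of 75, 1.33%), in a domain shared with Rdh10. Mitochondrial ribosomal proteins gave Mrpl40 (1 of 67, 1.49%), in a domain shared with Hira. These shares lie near the 1.43% of regions. Hira, a histone chaperone gene, and Mrpl40 lie in the mouse interval that corresponds to the deletion of DiGeorge syndrome, which also holds Tbx1. Their domain (chr16:18876334-18878551, 2218 bp) had 1669, 914 and 1468 bp in Mesp1-Cre Ctrl, 2150, 1887 and 1667 bp in Tbx1-Cre Ctrl and 1488, 702 and 1127 bp in cKO, and the last 2 groups did not overlap. No gene of 9 lists was at a domain: Hox, Sox and T-box genes, GATA factors, bHLH genes, TEAD, MEF2, SMAD and SRF factors, nuclear receptors, immediate early genes and proteasome subunits were absent. The nuclear receptor list did not hold Pgr and the bHLH list did not hold Tcfap4, both of which were at domains. With 4 to 43 genes with a shared promoter region in these lists and 1.43% of regions being domains, a count of 0 is read no further.

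The sequence of the domains was not used to choose them. CpG-rich sequence ran farther in the domains than in narrower promoters. The longest run of 200 bp windows with a GC content of 50% or more and a CpG observed-to-expected ratio of 0.6 or more had a median of 1908 bp in domains (25th to 75th percentile 1395.5 to 2196 bp), 1113 bp in promoter regions from 1000 bp up to the length limit and 973 bp in all narrower promoters. Such a run reached 2000 bp in 65 domains (43.3%) and in 3.64% of narrower promoters. Its median rose with each step of region length, from 784 bp at 500 to 999 bp and 1063 bp at 1000 to 1499 bp to 1453 bp from 1500 bp up to the limit and 1906 bp at 2000 to 2499 bp. Across all 10488 shared promoter regions the length of the region and of the run had a Spearman rho of 0.50. This is a description across regions, which share libraries and base composition. Within the 150 domains rho was 0.06.

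The CpG density itself was alike at the centre and differed in the flanks. In the 100 bp centred 50 bp right of the midpoint it was 9.77 sites per 100 bp in domains and 9.21 in narrower promoters, while 550 bp to the right it was 8.34 against 3.39 and 550 bp to the left 8.21 against 3.88. In promoters from 1000 bp up to the limit it was 3.97 to the right and 4.70 to the left. These 100 bp lie inside every domain but at or beyond the edge of a narrower promoter of median length (1079 bp). The contrast in the flanks thus follows partly from the length rule. The GC content over the whole region had a median of 64.3% in domains and 60.5% in narrower promoters, and the CpG observed-to-expected ratio 0.764 and 0.742. The difference in the latter moved to 0.0050 against promoters from 1000 bp up to the limit and to 0.00023 in the central 300 bp. Over the 150 domains the ratio of cKO to Tbx1-Cre Ctrl covered length and the CpG observed-to-expected ratio had a Spearman rho of 0.32, given as a description. Over all 10488 shared promoter regions it was 0.21, so the relation was not particular to the domains.

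**Figure D5:**
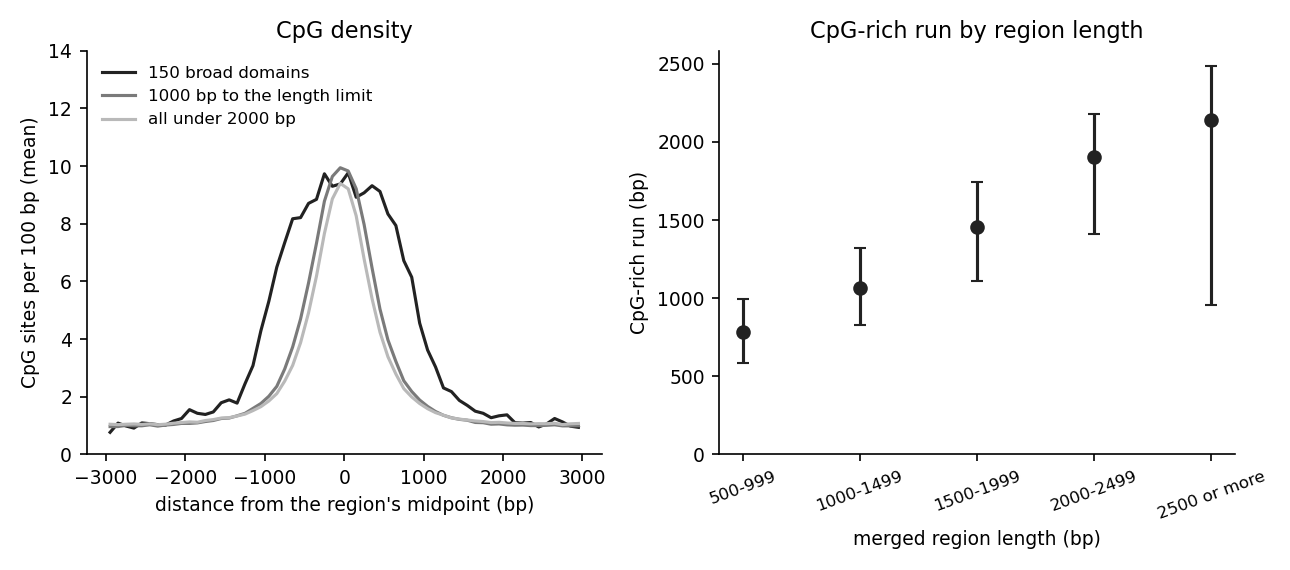
CpG sites per 100 bp by distance from the midpoint of the region in bp (left, means over regions in 100 bp bins, for domains, promoters from 1000 bp up to the limit and all narrower promoters) and length in bp of the longest CpG-rich run by class of merged length (right, medians with 25th to 75th percentile). The domains hold 9.77 CpG sites per 100 bp near the midpoint, where narrower promoters are alike, and 8.34 sites at 550 bp. That distance lies inside every domain but near or beyond the edge of many narrower promoters. The median run lengthens from 784 bp in the shortest class drawn to 1906 bp at 2000 to 2499 bp.

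Short motifs were searched on both strands in the 300 bp around the centre of the most widely covered part, and none of them contains another. The GC box GGGCGG occurred in 73.3% of domains and 70.7% of narrower promoters, the CCAAT box in 30.7% and 34.8%, and the TATA box TATAAA in 4.0% and 2.99%. The ETS core CCGGAAG occurred in 11 domains (7.33%) and in 17.3% of narrower promoters, the NRF1 core GCATGCG in 4 (2.67%) and 6.07%, and the YY1 core AAGATGGC in 3 (2.0%) and 4.84%. In promoter regions from 1000 bp up to the limit the ETS, NRF1 and YY1 shares were 14.3%, 5.91% and 4.65%. The T-box core GGTGTGA occurred in 5 domains (3.33%) and in 2.62% of narrower promoters, the GATA core AGATAA in 2 (1.33%) and 3.20%, the E-box CACGTG in 9.33% and 9.39%, and the cyclic AMP response element TGACGTCA in 2.67% and 3.16%. A match is a description of the letters in the window. The window is not centred on the TSS, so its distance from the TSS can differ between domains and narrower promoters, and its effect on these shares was not tested. The centre of the most widely covered part lay outside the named gene in 61 domains, outside it but inside another gene in 13, in a UTR exon in 35, in an intron in 33, in a coding exon in 6 and in another exon in 2.

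The arrangement of genes was like that of narrower promoters. The domains held 2 or more protein-coding genes in 19 cases (12.7%, beside 12.1% of narrower promoters), protein-coding genes on both strands in 16 (10.7%, beside 11.3%), and a median of 2 start positions of the lead gene in both classes. Of the domains, 4 (2.67%) lay on the X chromosome, beside 3.24%.

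Of the 150 domains, 7 stood apart by sequence. Gm10925, Zmym2, Hist2h3c1 and Hist2h2aa2 matched another place in the genome over more than 50% of their length (88.2% at Zmym2). Tcte2 and 4931408C20Rik had CpG observed-to-expected ratios of 0 and 0.017. AY036118 matched another place over 16.2% of its length and was set apart because ribosomal DNA is a repeated gene array. Of the merged regions of 2000 bp or longer in all 9 lists, 158 in number, 8 lay farther than 1 kb from a TSS and are not domains.

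The members nearest to the length limit were Ccng2 (2001 bp), Sh2b2 (2002 bp) and Cnn3 (2003 bp) just inside it. Just outside it were Tdrd3 and Auts2 (1 bp under it) and Zmynd11 (1998 bp). Auts2 was covered over its whole length in Tbx1-Cre Ctrl 1, over 1721 and 1891 bp in the other Tbx1-Cre Ctrl libraries and over 1319 to 1725 bp in cKO, which overlapped.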

How the data were processed

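ATAC-seq was done on sorted cells, and the authors aligned reads to mm9 with Bowtie2 2.3.4.3 and called peaks in each library with MACS2 2.1.2.179, per the submitters' processing notes. Per the methods of the study, adapters were trimmed and uniquely mapped, deduplicated, non-mitochondrial read pairs were kept. The deposited lists hold interval positions in bp with no score or height, so depth is unknown and intervals for counting error cannot be given. Here the peaks were merged, covered lengths summed, and the NCBIM37 (mm9) sequence and annotation (95414 start sites) read with Python 3.11.15, numpy 2.4.6, pandas 2.3.3, scipy 1.17.1 and pysam 0.24.0. Copies were searched with BLAST 2.17.0 (90% identity over 500 bp), and plots made with matplotlib 3.10.9. A domain was named by the protein-coding gene with the TSS nearest to its midpoint, or by another gene where none lay within 1 kb (2 domains). Named are the 10 longest, the 10 with the largest lowest library, the 5 lowest and 5 highest ratios of cKO to Tbx1-Cre Ctrl, up to 4 per gene list, and the 3 regions on each side of the length limit, except that some of these are not reported here. The members and lists were chosen with earlier results of these data known. Groups of 3 libraries were compared by exact two-sided permutation tests on domains chosen in the remaining group. The code was tested on simulated data. Alternatives changed the length limit, the distance, the peaks used, the summary and the libraries.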

Additional observations from a re-analysis of the deposited data

Results flagged for a closer look

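The Mesp1-Cre Ctrl lists hold intervals on the mitochondrial genome, which no comparison used. They covered 6967, 6799 and 6851 bp in Mesp1-Cre Ctrl 1, 2 and 3, and 0 bp in the Tbx1-Cre lists. The domain at Gm10925, of which 98.5% matched the mitochondrial genome, was covered over 4344 to 4536 bp in all 9 libraries. The cause was not tested.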

How the results depend on the processing

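Of 125 alternative values, 105 were counted as unchanged. Of the 125, 85 came from tests on domains chosen in the remaining group, and 72 of these were counted as unchanged. For these 85 values unchanged means the same direction only, and a change in size was not judged. For counts of domains the limit was wide, and 66 beside 95 non-overlapping domains was counted as unchanged. The median ratio of cKO to Tbx1-Cre Ctrl was unchanged within its SD over cKO libraries (0.10). Alternatives for GC content and CpG observed-to-expected ratio were never counted as unchanged. The total of 105 thus mixes unlike rules. The number of domains was 1379 with a limit of 1500 bp and 2 with 3000 bp, and ranged from 97 (without Tbx1-Cre Ctrl 1) to 152 when single libraries were left out. The difference between cKO and Tbx1-Cre Ctrl relative to narrower promoters (0.02, log2) became -0.0821 with the widest 75% of peaks, -0.0037 with 19762 peaks per library, -0.0679 with clipped peaks and -0.0092 with a limit of 1500 bp, but 0.11 with means over domains and 0.34 with 3000 bp (2 domains), and ranged from -0.0205 to 0.085 with 1 library left out. It was below 0 without Mesp1-Cre Ctrl 1 or 3, Tbx1-Cre Ctrl 1, or cKO 1 or 2. The difference between Tbx1-Cre Ctrl and Mesp1-Cre Ctrl relative to narrower promoters (0.11) became -0.0324 with means over domains, -0.0056 with a limit of 1500 bp and -0.17 with 3000 bp, and ranged from -0.18 (without cKO 1, which left 1 domain) to 0.17. With 1 library left out, the difference in median covered length ranged from -476 to -272 bp for cKO and from 60.3 to 477 bp for the Cre drivers, and that in peaks per domain from 0.386 to 0.767, with p up to 0.40 over its alternatives. The difference in GC content was 2.67 percentage points in the central 300 bp and 2.46 against promoters from 1000 bp up to the limit, and that in CpG observed-to-expected ratio 0.00023 and 0.0050.

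Library numbers did not pair the libraries: same-numbered libraries correlated at -0.03 to 0.06 in their deviations over promoter regions. With the replicate block the exact sign-flip p was 0.25 for the covered length (-407 bp), 0.75 for its relative value (0.02) and 0.25 for peaks per domain (0.474), and 0.25 (358 bp) and 0.50 (0.11) for the Cre drivers, where 0.25 is the smallest possible. No permutation test here could pass 0.05. Peak lists without heights do not separate depth from accessibility.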
